A study of Homo sapiens with 6 samples.

Results

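Hypoxia-inducible factors (HIFs) are transcription factors of the cellular response to low oxygen, and 10 genes of their pathway outside glycolysis were examined across the libraries of this study. They are the oxygen-regulated subunits HIF1A and EPAS1, the prolyl hydroxylases EGLN1 and EGLN3, the secreted factors VEGFA and ADM, and CA9, BNIP3, NDRG1 and ANKRD37, which are known as HIF targets. The genes were chosen by name, with earlier results of these data known. All 10 were found among the 39396 gene symbols of the deposited table of raw read counts. The study sequenced RNA in 6 libraries, with 3 under the label olaparib and 3 under DMSO. Their genotype is given as WT and their source as RKO, an established colorectal carcinoma line that was grown in EMEM with serum and antibiotics and plated 24 h before treatment. Olaparib is an inhibitor of PARP enzymes, sensors of broken DNA, and DMSO is its solvent. The dose, the length of treatment and the oxygen tension of the cultures are not stated in the sources used here. The title of the study links olaparib sensitivity to KAT2B and RAD51C, and the labels give a single comparison, olaparib against DMSO. Whether replicates were separate cultures is not stated, so the p-values speak only to the spread among these libraries, and that spread may be technical.

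In well-oxygenated cells, EGLN enzymes hydroxylate the HIF alpha subunits, the VHL ubiquitin ligase binds the hydroxylated form, and the proteasome degrades it. When oxygen is scarce the alpha subunits escape this, pair with ARNT and bind short DNA elements with the core ACGTG or GCGTG, known as hypoxia response elements. Much of this control acts on protein, so the mRNA of HIF1A or EPAS1 is not a measure of HIF activity. In tumours the pathway is known for new vessel growth, pH control, removal of mitochondria and feedback on oxygen sensing.

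Library totals ran from 28715138 to 42423785 counts, and levels are given as CPM, counts scaled to the TMM-adjusted size of each library. The groups differed across most of the transcriptome: edgeR's quasi-likelihood test covered 17078 genes and called 75.7% of them at a Benjamini-Hochberg adjusted p of 0.05. Markers of cell type moved with the groups. All 7 genes of a list for embryonic kidney and neuronal genes of HEK293 cells reached 1 CPM in DMSO, with a summed level of 268 to 474 CPM, against 1 of 7 in olaparib, with 18.3 to 23.2 CPM. PAX2, LIN28B and NEFL had no count in any olaparib library, where LIN28B held 5043 counts in DMSO, and IRS4 held 4 counts in olaparib and 17257 in DMSO. Of 8 intestinal epithelial markers, 2 reached 1 CPM in each group, and they were CDX2 and LGR5 in DMSO and MUC2 and EPCAM in olaparib, with a summed level of 26.0 to 31.8 CPM in DMSO and 10.8 to 11.3 CPM in olaparib. CDX1 had no count in any library and CDX2 none in olaparib. The simple epithelial keratins KRT8 and KRT18 were present in both groups, and with KRT19 they summed to 804 to 1082 CPM in olaparib and 217 to 284 CPM in DMSO. KRT19 had no count in DMSO. Of 7 fibroblast markers 2 reached 1 CPM in olaparib and 5 in DMSO. Their summed level was 101.1 to 135.5 CPM in olaparib and 93.1 to 100.6 CPM in DMSO. Most of it was COL1A1, the only one that was higher in olaparib (112.6 ± 18.4 against 68.4 ± 3.39 CPM). LUM, COL3A1, DCN and FAP were called lower, with LUM at 0.21 ± 0.14 against 18.9 ± 0.88 CPM. PDGFRA and COL1A2 had no olaparib count, and 51 and 1 counts in DMSO. Of 5 endothelial markers 2 reached 1 CPM in olaparib and none in DMSO, and of 4 blood markers none did in either group. The libraries of either group may not hold the RKO cells that their labels name, and the identity of the cells was not tested. A difference of treatment and a difference of cells cannot be told apart in any fold change that follows, and directions are between libraries as labelled. In such bulk libraries, fewer cells that express a gene and less RNA per cell cannot be told apart.

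The letters that HIF is known to bind can be read in the sequence before most of these genes. Windows of 250 bases before each RefSeq start (GRCh38.p14) were searched on both strands for ACGTG and GCGTG. The table held 8 of the 10 genes, and no entry was used for VEGFA and NDRG1. These 8 genes had 9 windows, 2 of them for HIF1A. Counted by gene, 4 held ACGTG, 3 held GCGTG alone and 1, EGLN3, held neither. The GCGTG of HIF1A lay in its window 1, and its window 2 (chr14:61697462-61697711, 31.2% G and C) held neither core. The shares over all windows that follow are counted by window and not by gene. Among 35116 windows of the same length, 18.5% held ACGTG, 32.2% GCGTG and 43.2% at least 1 of both. The windows of EPAS1, EGLN1 and BNIP3 were rich in G and C (80.8, 81.2 and 81.6%, against a median of 58.0% over all windows), which bears on how often CG-containing letters occur. The matches follow with up to 10 bases on each side, 5′ to 3′ on the strand of the gene, so that the elements of genes that were higher, lower or not called in the olaparib libraries can be compared. Capitals mark the core, and where it lies on the other strand its complement is seen as CACGT.
CA9: gtttccaatgCACGTacagcccgta
EGLN1: gccgtggtgtACGTGcagagcgc
BNIP3: gcacgcgccgCACGTGccacacgcac
ANKRD37, distal: cgccgggctcCACGTGccagtgtttg
ANKRD37, proximal: gtgtttgtgtACGTGcggccgtggc
EPAS1: gcctgccggcGCGTGcccgcccaca
ADM: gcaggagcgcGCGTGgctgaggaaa
HIF1A: gctgagagcgGCGTGggctggggtg
The CA9 core stands at -18 to -14 from the RefSeq start (chr9:35673900-35673924, plus strand) and that of EGLN1 at -13 to -9 (chr1:231422288-231422310, minus strand). The BNIP3 match (chr10:131982042-131982067, minus strand) and the distal ANKRD37 match (chr4:185396669-185396694, plus strand) are the palindrome CACGTG. It holds ACGTG on both strands and is also the E-box of other factors, and it occurred in 6.3% of all windows. The proximal ANKRD37 match stands at -143 to -139 (chr4:185396688-185396712), and those of EPAS1, ADM and HIF1A are at chr2:46297280-46297304, chr11:10304962-10304986 and chr14:61695299-61695323, all on the plus strand. GENCODE 29 has transcripts of CA9, EGLN1, ADM and ANKRD37 that start further upstream, and the stretches shown for these 4 genes lie in their exons. BNIP3, EPAS1 and EGLN3 also have such transcripts in GENCODE 29, which start further upstream, and what is shown for them lies outside the exons of the gene.

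BNIP3 had the densest set, with 4 copies of GCGTG around its palindrome, and EGLN3 none. These stretches run from -250 to the next downstream exon of the gene in GENCODE 29, which for EGLN3 is not the most upstream exon, at chr10:131982014-131982173 for BNIP3 and chr14:33951082-33951324 for EGLN3, both on the minus strand, with the cores in capitals (GCGTG on the other strand is seen as CACGC).
BNIP3: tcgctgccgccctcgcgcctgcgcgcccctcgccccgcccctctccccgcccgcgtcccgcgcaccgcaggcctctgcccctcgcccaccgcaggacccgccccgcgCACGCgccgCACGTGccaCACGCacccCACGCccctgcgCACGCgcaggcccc
EGLN3: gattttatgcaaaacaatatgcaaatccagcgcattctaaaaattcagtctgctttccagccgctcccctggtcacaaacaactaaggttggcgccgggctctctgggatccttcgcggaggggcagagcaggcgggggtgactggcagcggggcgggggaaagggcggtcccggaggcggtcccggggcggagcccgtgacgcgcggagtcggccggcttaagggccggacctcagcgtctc
The absence of a match says only that these letters are not in this window, and a match is a description of letters.

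The 10 genes did not move as a block. EPAS1, VEGFA, ADM, NDRG1 and HIF1A were higher in the olaparib libraries, CA9, EGLN3 and BNIP3 were lower, and EGLN1 and ANKRD37 passed in neither direction. By edgeR's test 8 of 10 were called, where 75.7% of all tested genes were, with 5 higher (background 35.4%) and 3 lower (background 40.3%). A call with at least a 2-fold difference was made for 5 genes (background 47%), 3 higher (22%) and 2 lower (25%). In 8 genes the 3 olaparib libraries lay entirely above or below the 3 DMSO libraries, where 79.4% of all tested genes did so, with 5 above (background 37.3%) and 3 below (background 42%). The median log2 fold change of the 10 genes was 0.10, against -0.09 over all tested genes, and the median size irrespective of sign was 1.02 against 0.94. These shares are near those of the whole transcriptome, and only the individual values follow.

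**Figure D1:**
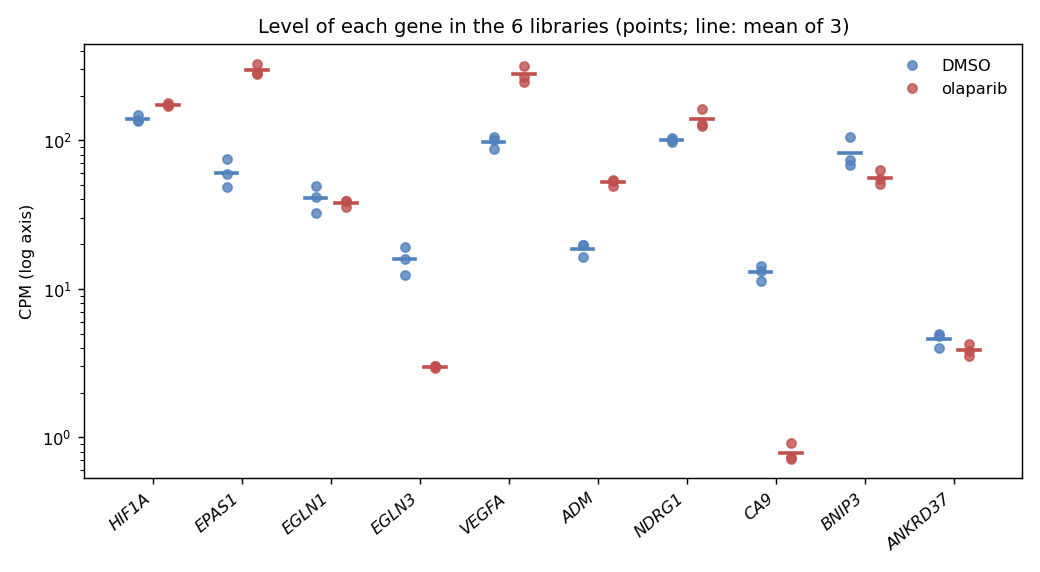
Level of each of the 10 genes in CPM (log axis) in the 3 DMSO libraries (blue) and the 3 olaparib libraries (red), with 1 point per library and a line at the mean of 3. The olaparib points of EPAS1, VEGFA and ADM lie above all DMSO points, those of CA9 and EGLN3 lie below them, and those of EGLN1 and ANKRD37 overlap.

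EPAS1, which encodes the HIF-alpha subunit known from endothelium and kidney, differed most among the genes that were higher. It stood at 328, 286 and 280 CPM in olaparib replicates 1, 2 and 3 and at 74.2, 48.5 and 59.1 CPM in the DMSO replicates. The lowest olaparib library was well above the highest DMSO library. The log2 fold change was 2.30 ± 0.15 (SE), a 4.91-fold difference (298 ± 26.0 against 60.6 ± 12.9 CPM, SD, n = 3), with an edgeR adjusted p of 4.49e-08. HIF1A, its ubiquitous paralog, stood at 178.5, 173 and 170 CPM in olaparib and 137, 135 and 147 CPM in DMSO. These groups also did not overlap, but the difference was small, 1.25-fold (log2 0.32 ± 0.09, edgeR adjusted p = 0.00756). With unscaled library sizes it was log2 0.25 (edgeR adjusted p = 0.0286), so a difference this small depends in size on the scaling. The antisense transcript HIF1A-AS1, which shares 117 exon bases with HIF1A, held between 0 and 5 counts in each library. HIF1A also shares 148 exon bases with AL137129.1 on the same strand, for which no counts were given.

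The balance of the alpha subunits differed between the groups. Per kilobase of exon, the level of EPAS1 was 1.29, 1.16 and 1.16 times that of HIF1A in the olaparib libraries and 0.38, 0.25 and 0.28 times in DMSO. Every olaparib library had more EPAS1 than HIF1A on this scale and every DMSO library less. HIF3A, the least abundant alpha subunit, was at 1.74 ± 0.43 CPM in olaparib and 0.41 ± 0.10 in DMSO (log2 2.07 ± 0.39, edgeR adjusted p = 0.000378). Among the partner subunits, ARNT was 97.0 ± 4.53 against 84.1 ± 10.1 CPM and was not called (log2 0.21 ± 0.11, adjusted p = 0.1). It was called without DMSO replicate 3 (log2 0.30, adjusted p = 0.022). ARNT2, which is known from neural and kidney cells, was 7.20-fold lower in olaparib, at 6.48 ± 1.92 against 46.6 ± 5.94 CPM.

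Of the prolyl hydroxylases, EGLN3 was lower in the olaparib libraries and EGLN1 was not called. EGLN3, whose mRNA is known to rise strongly under hypoxia, stood at 3.0, 2.94 and 3.04 CPM in olaparib and at 19.0, 15.98 and 12.5 CPM in DMSO. The olaparib libraries were almost level with each other and all below DMSO, by 5.28-fold (log2 -2.40 ± 0.20, edgeR adjusted p = 3.41e-07). EGLN1, the main oxygen sensor in most cells, was at 35.3, 39.2 and 39.2 CPM in olaparib and 49.5, 32.4 and 41.3 CPM in DMSO. All olaparib values lay inside the DMSO range, and the log2 fold change of -0.12 ± 0.14 did not pass (edgeR adjusted p = 0.472). It was 0.03 without DMSO replicate 1 and was called without DMSO replicate 2 (-0.27, adjusted p = 0.0463). EGLN2, whose mRNA is not known for induction by hypoxia, was 1.51-fold higher in olaparib (9.41 ± 0.81 against 6.20 ± 0.46 CPM, edgeR adjusted p = 0.007). Per kilobase of exon EGLN3 reached 0.084, 0.074 and 0.077 times the level of EGLN1 in olaparib and 0.38, 0.49 and 0.30 times in DMSO.

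Downstream of hydroxylation, VHL, the substrate receptor of the ubiquitin ligase, was 2.86-fold lower in olaparib (65.5 ± 1.74 against 187 ± 21.9 CPM, edgeR adjusted p = 9.65e-08). RBX1, the RING subunit of that ligase, was 2.61-fold lower (33.1 ± 1.36 against 86.4 ± 7.44 CPM). The ligase genes CUL2, ELOB and ELOC were looked up after the values were seen. CUL2 was 1.54-fold higher (59.7 ± 4.85 against 38.8 ± 2.71 CPM), and ELOB and ELOC were 1.80-fold and 1.95-fold lower. HIF1AN, the asparaginyl hydroxylase that blocks the coactivator contact, was 1.58-fold lower (90.7 ± 0.73 against 142.9 ± 7.51 CPM). CITED2, a HIF target that competes with HIF for the coactivators CREBBP and EP300, was 6.20-fold higher (257 ± 9.16 against 41.5 ± 4.46 CPM, edgeR adjusted p = 1.4e-09). Of the 26 genes in the list of HIF subunits and oxygen sensing, all were tested, and 8 were higher, 8 lower and 10 not called, with a median of -0.02. The 16 called genes of 26 compare with 75.7% of all tested genes, of which 35.4% were higher and 40.3% lower.

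**Figure D2:**
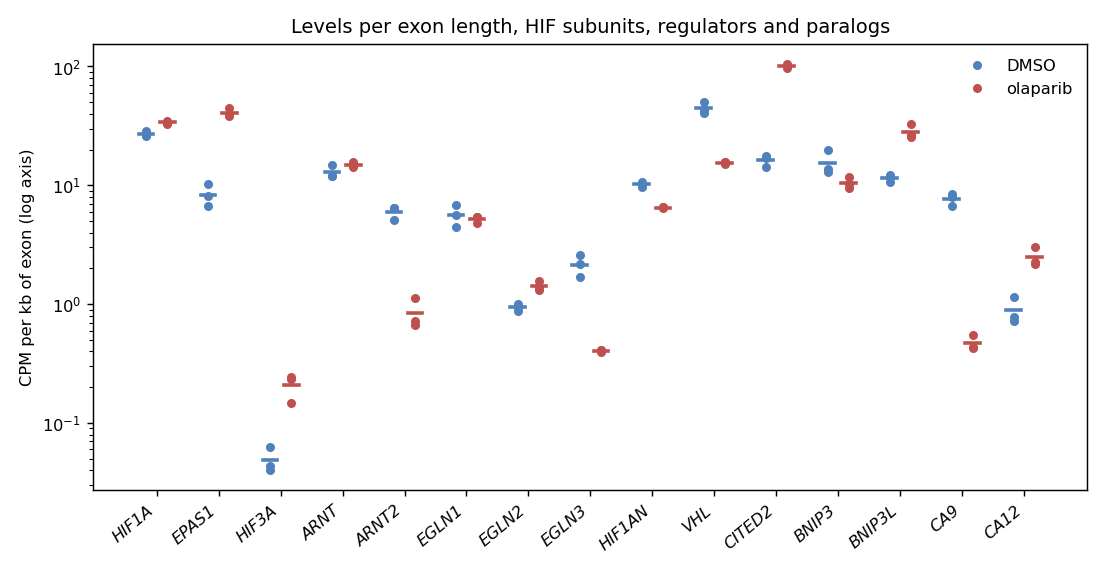
Levels in CPM per kilobase of exon (log axis) of HIF subunits, their regulators and the paralogs of BNIP3 and CA9, with 1 point per library and a line at the mean of 3 (DMSO blue, olaparib red). EPAS1 lies above HIF1A in olaparib and below it in DMSO, BNIP3L lies above BNIP3 in olaparib and below it in DMSO, and EGLN3 and CA9 are low in olaparib.

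VEGFA and ADM, secreted products of the pathway, were both higher in the olaparib libraries. VEGFA, the main growth factor of blood vessels, stood at 316, 248 and 268 CPM in olaparib and 87.3, 104.5 and 100.6 CPM in DMSO. Replicate 1 was the highest of the olaparib libraries, and all 3 were above every DMSO library. The log2 fold change was 1.51 ± 0.12, or 2.85-fold (277 ± 35.0 against 97.5 ± 9.02 CPM), with an edgeR adjusted p of 2.51e-07. VEGFA shares 188 exon bases with AL136131.3 on the opposite strand, for which no counts were given. ADM, the precursor of the vasodilator peptide adrenomedullin, stood at 49.5, 54.4 and 53.2 CPM in olaparib and 19.7, 19.8 and 16.4 CPM in DMSO. The groups were tight and far apart, with a log2 fold change of 1.49 ± 0.12 (2.81-fold, edgeR adjusted p = 1.97e-07).

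The receptors of these ligands differed in both directions. FLT4, the receptor of lymphatic vessels, stood at 50.1 ± 5.74 CPM in DMSO and held 4 counts in all olaparib libraries together (log2 -9.99 ± 0.29, edgeR adjusted p = 1.36e-10). FLT1 and KDR, the VEGFA receptors, and the co-receptor NRP1 were looked up after the values were seen. FLT1 held 2 olaparib counts, both in replicate 3, and 1131 DMSO counts, so that DMSO was higher by a ratio of 427 with a 95% counting interval of 118 to 3527. KDR held 4 counts in olaparib and 80 in DMSO. VEGFC, a ligand of FLT4, was 5.27-fold higher in olaparib (29.9 ± 2.05 against 5.67 ± 0.60 CPM), while PGF, a ligand of FLT1, was at 12.3 ± 1.72 CPM in DMSO. PGF held 6 olaparib counts, all in replicate 2, and its log2 fold change was -7.42 with that library and -11.73 without it. The co-receptor NRP2 was 9.19-fold lower (1.90 ± 0.24 against 17.5 ± 2.69 CPM), whereas NRP1 was 3.13-fold higher (44.7 ± 2.08 against 14.3 ± 2.42 CPM). CALCRL, the receptor that binds adrenomedullin together with a RAMP protein, was 0.13 ± 0.13 CPM in olaparib and 1.66 ± 0.25 in DMSO (log2 -3.57 ± 0.61, edgeR adjusted p = 0.000171). Its log2 value rested on 12 olaparib counts and was -4.49 without olaparib replicate 2 and -2.998 without olaparib replicate 3. ACKR3, an atypical receptor that also binds adrenomedullin, was looked up after the values were seen and was 1.94-fold higher in olaparib (17.5 ± 5.05 against 9.02 ± 1.37 CPM, edgeR adjusted p = 0.00106). RAMP1 stood at 11.6 ± 4.62 CPM in DMSO and lacked any olaparib count. With the olaparib group set to a floor of 3 counts, RAMP1 was at least 339.8-fold lower. Such a floor covers counting error alone and not the spread among libraries. RAMP2 and RAMP3 were looked up after the values were seen, and both lacked any olaparib count. In DMSO RAMP2 held 181 counts and RAMP3 none. Of 16 tested genes in this list of 17, 7 were higher, 8 lower and 1 not called, with a median of -1.43, where 35.4% of all tested genes were called higher and 40.3% lower, with a median of -0.09. Of 5 endothelial markers, which include KDR, 2 (PECAM1 and CDH5) reached 1 CPM in olaparib and none in DMSO, with summed levels of 23.0 to 24.7 and 1.33 to 1.69 CPM. Most of the olaparib sum was CDH5, at 20.5 ± 0.11 CPM. The part of endothelial markers in the values of the receptors was not tested.

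CA9 showed the largest difference of the 10 genes. It encodes a carbonic anhydrase of the cell surface that helps tumour cells to export acid, and it is widely used as a marker of hypoxia. CA9 was at 0.73, 0.72 and 0.92 CPM in olaparib, from 21, 22 and 26 counts, and at 13.2, 14.2 and 11.2 CPM in DMSO, from 558, 421 and 497 counts. No library came near the other group, and the log2 fold change was -4.02 ± 0.23, or 16.2-fold lower (edgeR adjusted p = 1.35e-08). The gene shares 643 exon bases with ARHGEF39 on the opposite strand, and no source used here gives the strand setting of the counting, so reads of that stretch cannot be told apart. ARHGEF39 itself was 21.8 ± 2.06 CPM in olaparib and 26.1 ± 3.41 in DMSO and was not called (log2 -0.27 ± 0.13, edgeR adjusted p = 0.0901).

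CA12, another HIF-regulated carbonic anhydrase of the cell surface, went the other way and was 2.81-fold higher in olaparib (18.2 ± 3.40 against 6.48 ± 1.72 CPM, edgeR adjusted p = 3.57e-05). Per kilobase of exon, CA12 stood at 6.89, 5.22 and 3.99 times CA9 in the olaparib libraries and at 0.15, 0.091 and 0.11 times in DMSO. The cytosolic enzyme CA2 was at 98.7 ± 52.0 CPM in DMSO and held 2 counts in olaparib, both in replicate 2. CA8, a family member without catalytic activity, stood at 60.1 ± 24.7 CPM in DMSO and lacked any olaparib count, at least 1781-fold lower by the same floor. The mitochondrial CA5B was 2.89-fold higher (29.3 ± 1.37 against 10.1 ± 1.53 CPM). The bicarbonate transporter SLC4A4 stood at 0.14 ± 0.19 CPM in olaparib and 4.34 ± 1.60 CPM in DMSO. Of its 12 olaparib counts 10 were in replicate 1, and its log2 fold change was -4.95 with that library and -6.87 without it. Of 12 tested genes in this list of 18, 3 were higher, 6 lower and 3 not called, with a median of -0.48. Over all tested genes 75.7% were called, 35.4% higher and 40.3% lower.

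BNIP3, a receptor on the outer mitochondrial membrane that recruits the autophagy machinery, was 1.46-fold lower in olaparib. It stood at 63.1, 54.7 and 50.6 CPM in olaparib and at 104.9, 73.2 and 68.3 CPM in DMSO. The groups did not overlap, but DMSO replicate 1 stood apart from the other two. The log2 fold change of -0.55 ± 0.15 (edgeR adjusted p = 0.00651) was -0.35 without that library (adjusted p = 0.017). Its paralog BNIP3L, which acts in the same process, was 2.44-fold higher, at 121 ± 16.9 against 49.7 ± 3.28 CPM (edgeR adjusted p = 7.89e-07). Per kilobase of exon BNIP3 was 0.36, 0.39 and 0.37 times BNIP3L in olaparib and 1.84, 1.12 and 1.10 times in DMSO. FUNDC1, also a receptor of mitophagy, was 2.03-fold lower (15.3 ± 1.53 against 31.0 ± 3.07 CPM). HIGD1A, a hypoxia-induced protein of the respiratory chain, was 2.89-fold lower (23.2 ± 1.35 against 67.1 ± 7.23 CPM), and CHCHD2 was 2.48-fold lower (220 ± 17.96 against 545 ± 55.9 CPM). Of 11 tested genes in this list of 12, 2 were higher, 6 lower and 3 not called, with a median of -0.55, beside 35.4% higher and 40.3% lower over all tested genes. BNIP3L and ISCU, an assembly protein of iron-sulfur clusters, were the 2 higher genes. ISCU was picked out after its value was seen, and its adjusted p in edgeR was 0.0467. The count of higher genes was 1 with the replicate number as a block and without any single library other than DMSO replicate 2.

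NDRG1, a stress-induced protein tied to cell differentiation, was 1.39-fold higher in olaparib. It was at 163, 129 and 125 CPM in olaparib and 100.2, 97.5 and 103.7 CPM in DMSO. Replicate 1 was the highest olaparib library, as for HIF1A, EPAS1, VEGFA, BNIP3 and ANKRD37. For NDRG1 the groups did not overlap (log2 0.47 ± 0.11, edgeR adjusted p = 0.00251). Within the family NDRG3 was also higher, by 1.37-fold (66.8 ± 3.45 against 48.7 ± 7.36 CPM). NDRG2 and NDRG4 were lower, by 10.7-fold (1.38 ± 0.39 against 14.9 ± 4.12 CPM) and 7.28-fold (4.20 ± 0.09 against 30.6 ± 7.98 CPM).

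ANKRD37, a small ankyrin-repeat protein that is a direct HIF target, showed no called difference. It was at 4.26, 3.82 and 3.54 CPM in olaparib and 4.82, 4.01 and 4.95 CPM in DMSO. The groups overlapped, and the log2 fold change was -0.25 ± 0.21 (edgeR adjusted p = 0.3). It rested on 100 to 219 counts per library, where CA9 and EGLN3 alone were shallower, with 21 to 26 and 86 to 90 counts in olaparib. ANKRD37 shares 909 of its 2580 exon bases with UFSP2 on the opposite strand. UFSP2 was 1.98-fold higher in olaparib (14.2 ± 2.17 against 7.18 ± 0.98 CPM, log2 0.99 ± 0.18, edgeR adjusted p = 0.000262), and its part in the ANKRD37 counts was not tested.

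Among the other HIF targets outside glycolysis, a list chosen with earlier results of these data known, most were higher in olaparib. Of 36 tested genes in this list of 38, which includes ANKRD37, 21 were higher, 7 lower and 8 not called. The median log2 fold change was 0.59, against -0.09 over all tested genes, of which 75.7% were called, 35.4% higher and 40.3% lower. DDIT4, an inhibitor of mTORC1 signalling, was 3.86-fold higher (503.8 ± 18.3 against 130.5 ± 6.63 CPM). The histone demethylases KDM4C and KDM4B went opposite ways, with KDM4C 2.96-fold higher (53.9 ± 1.10 against 18.2 ± 0.71 CPM) and KDM4B 2.37-fold lower (43.6 ± 2.20 against 103.4 ± 2.71 CPM). Many genes of this list also answer to other signals, and the counts do not separate them.

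**Figure D3:**
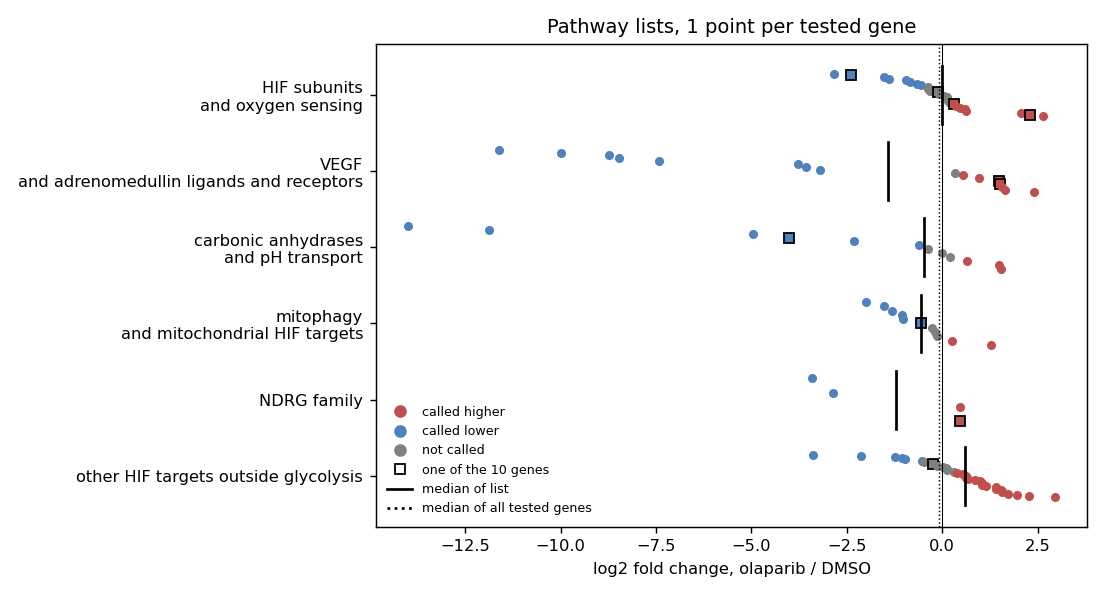
Log2 fold change of olaparib over DMSO for each tested gene of the 6 pathway lists, coloured by edgeR call, with the 10 genes of the report as squares, the median of each list as a line and the median of all tested genes (-0.09) dotted. The list of other HIF targets has a median of 0.59, and the list of VEGF and adrenomedullin ligands and receptors reaches from above 2 down to below -11, where fitted values of genes without an olaparib count depend on the model.

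Ordered by level per kilobase of exon, the 10 genes ranked differently in each group. In olaparib EPAS1 led with 40.8 ± 3.56 CPM per kilobase (SD, n = 3), followed by HIF1A with 33.8 ± 0.81, ADM with 19.3 ± 0.95, VEGFA with 19.2 ± 2.42, NDRG1 with 14.2 ± 2.11 and BNIP3 with 10.5 ± 1.20. EGLN1 (5.21 ± 0.31), ANKRD37 (1.501 ± 0.14), CA9 (0.47 ± 0.07) and EGLN3 (0.41 ± 0.01) closed the order. Only ADM and VEGFA overlapped among neighbours in this order. In DMSO HIF1A led with 27.1 ± 1.31, followed by BNIP3 with 15.4 ± 3.73 and NDRG1 with 10.2 ± 0.32. From NDRG1 through EPAS1 (8.30 ± 1.77), CA9 (7.72 ± 0.90), ADM (6.85 ± 0.71), VEGFA (6.75 ± 0.62) and EGLN1 (5.65 ± 1.18), each gene overlapped the next in range. EGLN3 (2.15 ± 0.44) and ANKRD37 (1.78 ± 0.20) closed the order and overlapped each other. Exon lengths are those of all GENCODE 29 transcripts of a gene merged, up to 14431 bases for VEGFA, so a gene with many rare exons ranks low on this scale.

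Each gene was also set beside its neighbours, the other tested protein-coding genes within 5 Mb. The median of the neighbours had the opposite sign for HIF1A, VEGFA, ADM and ANKRD37 and the same sign for the other genes. Near EPAS1 (chromosome 2, 46293667 to 46386703, hg38) the median log2 fold change of 37 genes was 0.44, and within 2 Mb it was 0.95 over 20 genes, against 2.30 for EPAS1. Near VEGFA (chromosome 6, 43770184 to 43786487) and ADM (chromosome 11, 10304680 to 10307397) the medians were -0.23 over 76 genes and -0.69 over 64 genes, while both genes were higher. Near HIF1A (chromosome 14, 61695513 to 61748259) the median was -0.55 over 49 genes. Near CA9 (chromosome 9, 35673856 to 35681159), EGLN3 (chromosome 14, 33924231 to 34462774) and BNIP3 (chromosome 10, 131966455 to 131982013) the medians were -0.17 over 79 genes, -0.52 over 41 genes and -0.33 over 29 genes. For BNIP3 the median within 2 Mb, -0.60 over 24 genes, was as low as the gene itself. EGLN1 (chromosome 1, 231363751 to 231425044) stood at -0.12 in a region where 46 of 66 genes were lower, with a median of -0.93. ANKRD37 (chromosome 4, 185396021 to 185400628) stood at -0.25 beside a median of 0.56 over 29 genes, and NDRG1 (chromosome 8, 133237171 to 133302022) at 0.47 beside 0.07 over 8 genes, or 0.80 over 5 genes within 2 Mb. A test of each gene against its region was not made.

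**Figure D4:**
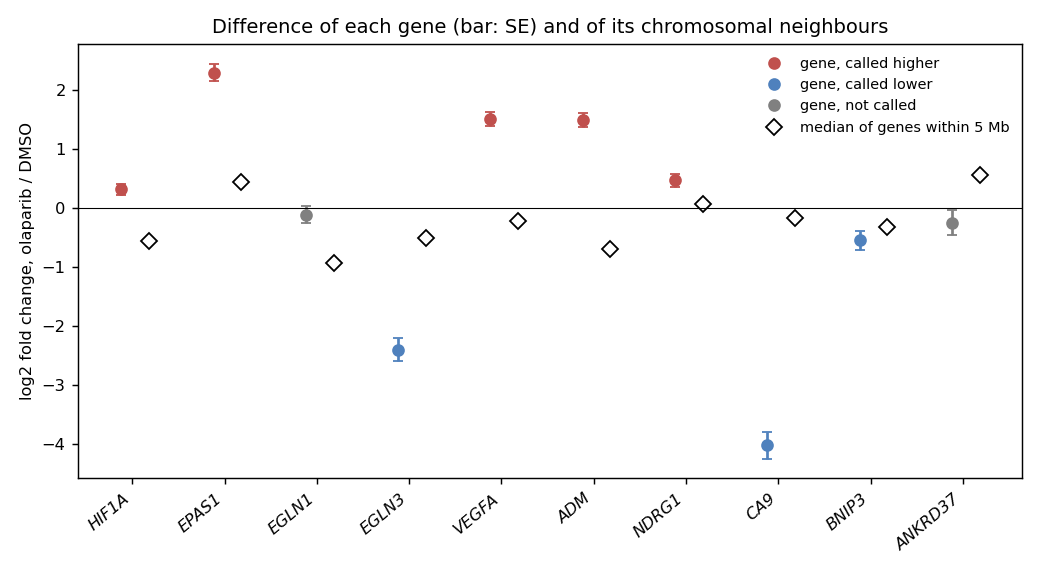
Log2 fold change of olaparib over DMSO for each of the 10 genes (points, bars are SE, coloured by edgeR call) and the median of other protein-coding genes within 5 Mb (open diamonds). HIF1A, VEGFA, ADM and ANKRD37 lie on the other side of 0 from their neighbours, and CA9 at -4.02 and EGLN3 at -2.40 lie below medians of -0.17 and -0.52.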

How the data were processed

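For 6 RNA-seq libraries the authors deposited raw read counts per gene symbol in a single table. Tools listed per the submitters' processing notes are fastp and STAR, with the build hg38, while counting program, strand setting and annotation are not stated there. Genes with 2 counts outnumbered those with 1 in each library, so intervals and floors from counts, which cover counting error alone, are too narrow. Groups and replicate numbers came from sample titles, which match the column names. Library pairs within groups differed by more than sampling noise (chi-square per degree of freedom 4.7 to 68.6). The test was edgeR 4.0.16 under R 4.3.3 (default expression filter, TMM, robust quasi-likelihood, group as the only term, Benjamini-Hochberg over 17078 genes, calls at 0.05). Standard errors come from the F statistic. Folds for genes absent from a group used a floor of 3 counts over its 3 libraries. Gene positions and exon lengths came from GENCODE 29, and promoter windows from RefSeq on GRCh38.p14. The test was checked on simulated counts in which only a small share of genes differed. That check does not cover a difference across most of the transcriptome, as between these groups.

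The named genes were the 10 members, up to 4 others per list with the smallest adjusted p among those with a mean of at least 1 CPM in a group, and 11 fixed by name; an item that this rule selects is not reported here. The members and lists were chosen with earlier results of these data known. Alternatives were DESeq2 1.42.0, limma-voom (limma 3.58.1), edgeR with RLE scaling or with unscaled library sizes, 2 further filters on low counts, a term for replicate number, fits without each library and a window of 2 Mb.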

Additional observations from a re-analysis of the deposited data

How the results depend on the processing

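The members called stayed at 5 higher under all 13 alternative fits and at 3 lower under 12 of them, with 4 lower without DMSO replicate 2, when EGLN1 was called at -0.273. The single reversal of sign was EGLN1, at 0.027 without DMSO replicate 1. Of 30 other named genes, 29 kept direction and call throughout, and ARNT was called without DMSO replicate 3. In the list of mitophagy and mitochondrial HIF targets the genes called higher went from 2 to 1 with library size alone, without a filter beyond 1 count and with the replicate block, and ran from 1 to 2 without each library, since ISCU lies near the threshold. All other counts of calls stayed within 1.5 times. With the replicate number as a block, 5797 genes were called higher and 6629 lower, against 6045 and 6882 without it, and the members were again 5 higher and 3 lower. Nothing ties libraries of the same number: deviations from the group means correlated at -0.18, -0.13 and -0.01 for numbers 1, 2 and 3, and no library correlated best with its own number. Depth limits the precision of CA9 in olaparib, which rested on 21 to 26 counts per library.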
